A study of Mus musculus with 20 samples.

Results

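Antigen presentation genes were followed through dorsal mouse skin in anagen, when hair follicles are growing. The 7 genes are Cd74, H2-Aa, H2-Ab1, H2-Eb1, H2-DMa, Ciita and Cd207. They were found by their symbols in the gene tables of both deposited matrices, which list 31055 genes, and all 7 were present. The data are single-cell RNA-seq from 3′ libraries, in which each unique molecular identifier (UMI) counts 1 captured transcript. One matrix came from Control mice, Nfatc1-CreER;R26R;mTmG, given tamoxifen for 3 days from postnatal day 21 or 22, and 1 from Mutant mice, Nfatc1-CreER;R26R;mTmG;Fgf5-/-, given it for 3 days from postnatal day 23 or 24. Both groups therefore carry the tamoxifen-dependent Cre driven from Nfatc1 and the membrane-tomato to membrane-GFP reporter; the mutant differs by its Fgf5 deletion and by the start day of tamoxifen. The labels list 4 Control and 16 Mutant samples, but each matrix pools its group with no map from barcodes to samples. Each group is thus 1 library, no test between the groups was possible, and every interval given here covers counting error only. Age at harvest is not given in the sources used here.

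MHC class II molecules present peptides from ingested proteins to CD4+ T cells. H2-Aa pairs with H2-Ab1 to form I-A, and H2-Eb1 is the beta chain of I-E. Cd74, the invariant chain, fills the groove of a new class II molecule during its transport, and the H2-DM heterodimer, of which H2-DMa encodes the alpha chain, catalyses the exchange of the remaining Cd74 fragment for peptide. Ciita is the transactivator that switches the class II genes on, acting through factors bound to a conserved promoter module of W/S, X and Y boxes. Cd207 encodes langerin, the C-type lectin of Birbeck granules that marks Langerhans cells, the resident antigen-presenting cells of the epidermis.

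Promoters from RefSeq (GRCm38.p6; 250 bases before to 50 after each start) were matched for 4 of the 7 genes: H2-Aa, H2-Eb1, H2-DMa and Cd207. The stretches below are shown because class II chains share a promoter module, and no link between these letters and the levels described later was tested. The capitals mark GCAAC, letters within the X box, and CTGATTGG, which holds the inverted CCAAT of the Y box.
H2-Aa, chr17:34287837-34287916, minus strand: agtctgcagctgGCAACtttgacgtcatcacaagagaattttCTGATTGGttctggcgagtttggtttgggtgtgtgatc
H2-Eb1, chr17:34305764-34305842, plus strand: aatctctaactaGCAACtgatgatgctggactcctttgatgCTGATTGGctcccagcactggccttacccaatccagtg
In H2-Aa the capitals began 81 and 51 bases before the start, and in H2-Eb1 91 and 62 bases before it. The letters were chosen after these promoters had been seen. Searched on both strands with starts 25 to 35 bases apart, the pair was present in 22 of 32851 promoters of the same length (0.0670%), among them H2-Aa, H2-Eb1, H2-Eb2 and H2-Oa; CTGATTGG alone was in 4.10% and GCAAC alone in 35.2%. The pair was not in the windows of H2-DMa, H2-DMb1, H2-DMb2 or Cd207, which says only that these letters are not there.

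After removal of barcodes with under 500 genes, over 15% mitochondrial UMIs or a doublet call, 13790 of 16973 Control and 11002 of 13411 Mutant barcodes were kept, with 130487694 and 87579498 UMIs and medians of 5591.5 and 5984.5 UMIs per cell. Scrublet called 2.59% of Control and 3.95% of Mutant cells, against expected rates of 11.3% and 9.16%. The libraries shared 59 barcode sequences, none of them in a class II-high cell as defined below. Levels are UMIs per 1000000 UMIs (CPM); 3′ tags carry no length factor. A ratio of Mutant over Control is called large here, and "rose" or "fell" used, only where it reached 2-fold, its 95% interval stayed beyond 1.5-fold and the higher of both levels was at least 100 CPM.

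Over all kept cells, the class II chains and Cd207 stood at unequal distances between the libraries. Cd74 was at 85.8 CPM in Control and 104 in Mutant, a log2 ratio of 0.27, and H2-Ab1 at 44.1 and 53.9 CPM, a log2 ratio of 0.29. H2-Aa was at 17 and 38.8 CPM, with a log2 ratio of 1.20 (95% interval 1.12 to 1.27), and H2-Eb1 at 20.4 and 49.9 CPM, with 1.29 (1.22 to 1.36). Cd207 was at 14.6 and 37.4 CPM, a log2 ratio of 1.36 (1.27 to 1.44). Ciita was rare, with 43 UMIs in Control and 105 in Mutant (log2 ratio 1.86; 1.34 to 2.41), and H2-DMa differed the other way, at 6.13 and 3.88 CPM (log2 ratio -0.66). Of the 7 genes only Cd74 reached 100 CPM over all cells, and none had a large ratio; 6.32% of the 1599 genes at 100 CPM had one.

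These totals were set by few cells. A cell was called class II-high when Cd74, H2-Aa, H2-Ab1 and H2-Eb1 together gave at least 10 UMIs and at least 0.2% of its UMIs. That held for 84 Control cells, 0.609% (Clopper-Pearson 95% interval 0.486 to 0.754), and for 94 Mutant cells, 0.854% (0.691 to 1.04), a log2 ratio of shares of 0.49 (0.05 to 0.93). Together the 178 cells held 77.4% of the UMIs of the 4 genes in Control and 93.8% in Mutant, and 89.9% and 97.3% of the Cd207 UMIs. For Ciita they held 39.5% and 50.5%, for H2-DMa 40.6% and 50.6%, and for H2-Ab1 53.9% in Control against 86.7% in Mutant. No UMI of the 4 genes was seen in 12115 Control cells (87.9%) and 10022 Mutant cells (91.1%). With the class II-high cells left out, the log2 ratio of the 4 genes over all cells turned from 0.56 to -1.31.

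**Figure D1:**
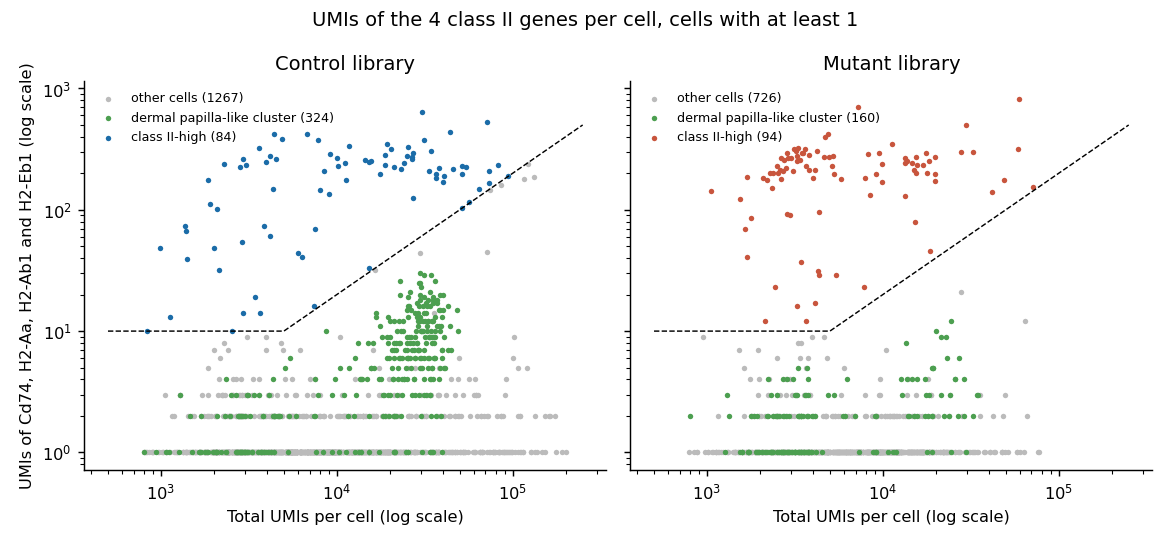
Each point is a kept cell with at least 1 UMI of Cd74, H2-Aa, H2-Ab1 or H2-Eb1: total UMIs of the cell on the x axis and UMIs of the 4 genes on the y axis, both on log scales, with the Control library on the left and the Mutant library on the right. The dashed line is the class II-high threshold; 84 Control and 94 Mutant cells lie on or above it, and the dermal papilla-like cluster (green) forms a separate cloud below it in Control.

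Few cells lay at the threshold. Just inside it, at 0.2 to 0.25% of their UMIs, were 7 Control and 2 Mutant cells, and just outside it, at 0.15 to 0.2%, were 5 and 0, while 52 and 75 cells were at 1% or more. The median number of UMIs of the 4 genes was 212.5 in both libraries, although the median total was 11191 UMIs in Control class II-high cells and 4304.5 in Mutant ones. The deep cells were those that also carried keratin transcripts. Class II-high cells with at least 3 Cd207 UMIs and keratin genes at 0.5% or more of their UMIs numbered 45 in Control and 38 in Mutant, with medians of 26768 and 14837.5 total UMIs and 228 and 233.5 UMIs of the 4 genes. Cells with Cd207 and neither keratin nor T cell genes (Cd3e, Cd3g, Trac and Trdc together at 3 UMIs) numbered 13 (15.5%; 8.51 to 25) and 34 (36.2%; 26.5 to 46.7), with medians of 3036 and 2827 total UMIs and 246 and 254.5 UMIs of the 4 genes. A cell with several times the RNA thus held a like number of class II UMIs. Whether the keratin-bearing cells are doublets was not tested.

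Cd207 was at 3 or more UMIs in 59 of 84 Control class II-high cells (70.2%) and 76 of 94 Mutant ones (80.9%). Other Langerhans cell genes were set against the remaining kept cells, with medians of 5582.5 and 5999 UMIs, also after thinning each cell to 1500 UMIs. H2-M2, a non-classical class I gene, was detected in 52 Control (61.9%) and 62 Mutant (66.0%) class II-high cells, against 1.40% and 1.04% of the others; thinned, the shares were 30.8% and 40.9% against 0.394% and 0.226%. Csf1r, the receptor through which Il34 maintains Langerhans cells, was in 44 (52.4%) and 67 (71.3%) cells against 0.197% and 0.431%, and thinned in 19.2% and 35.5% against 0.0552% and 0.137%. Mfge8, a bridging protein for apoptotic cells, was in 63 (75%) and 79 (84.0%) cells against 27.0% and 23%, and thinned in 35.9% and 74.2% against 8.33% and 7.07%. These 3 genes thus stood above the other cells at equal depth. Epcam, the adhesion molecule that murine Langerhans cells share with keratinocytes, was in 77.4% and 78.7% of class II-high cells. Thinned, its shares were 47.4% and 57.0%, against 23.02% and 38.5% of all other kept cells. In the other cells of keratinocyte clusters the shares were 67.3% and 81.1%, or thinned 32.7% and 56.8%. The thinned class II-high share thus lay above that of keratinocyte clusters in Control and close to it in Mutant. The mast cell gene Cpa3 was at 0 UMIs in all 178 cells, and the B cell gene Cd79a was seen in 10 Control and 3 Mutant cells, thinned in 1 of each. C1qa, a complement gene of macrophages, was detected in 5 Control cells (5.95%; 1.96 to 13.3) and 28 Mutant cells (29.8%; 20.8 to 40.1). Thinned, it was in 3.85% (0.80 to 10.8) and 14% (7.66 to 22.7), intervals that overlap. It was not confined to cells without Cd207: of those with Cd207 and neither keratin nor T cell genes, 2 of 13 and 11 of 34 had it. The GFP of the reporter was detected in 46 cells of each library and tomato in none. The cells with GFP had medians of 25932 total UMIs in Control and 5376 in Mutant. Among cells with Cd207 and neither keratin nor T cell genes, GFP was in 4 of 13 and 11 of 34. For GFP no thinned share and no share in the other cells is given, so no lineage is read from it.

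Clusters were built without the 7 genes and the other class II chains, so their place among the clusters was not fixed by their own counts. Each of the 7 was highest in cluster 24, a small leukocyte cluster of 84 Control and 120 Mutant cells that held 55 and 85 of the class II-high cells. Ciita was at 38.6 CPM there, with both libraries summed, and at 2.12 CPM or less in each of the other clusters. Cd207 was at 2578 CPM against 37.1 in the next cluster. The cluster as a whole was left unnamed, since it was led by the mast cell proteases Mcpt4 and Cma1 as well as Lyz2. Split further, it gave 4 Langerhans-like groups with 38 Control and 72 Mutant cells together, a neutrophil-like group with 5 and 25 cells, a mast cell-like group with 23 and 5, a macrophage or monocyte-like group with 10 and 14, and 1 unnamed group with 8 and 4. The Langerhans-like cells of the libraries came from different groups. Of the 38 Control cells, 23 sat in 1 that held 3 Mutant cells. Of the 72 Mutant cells, 39 sat in another that held 7 Control cells. The groups of 8 and 13 and of 0 and 17 cells were led by Tslp, beside Il1r2 and Cd86. Tslp, Ptgs2, Igfbp3 and Ifi202b led both and also the unnamed keratinocyte cluster 4. Their median totals were 16883 and 14575 UMIs, against 9064 and 2810 in the groups of 23 and 3 and of 7 and 39 cells. The part of keratinocyte RNA in them was not tested.

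**Figure D2:**
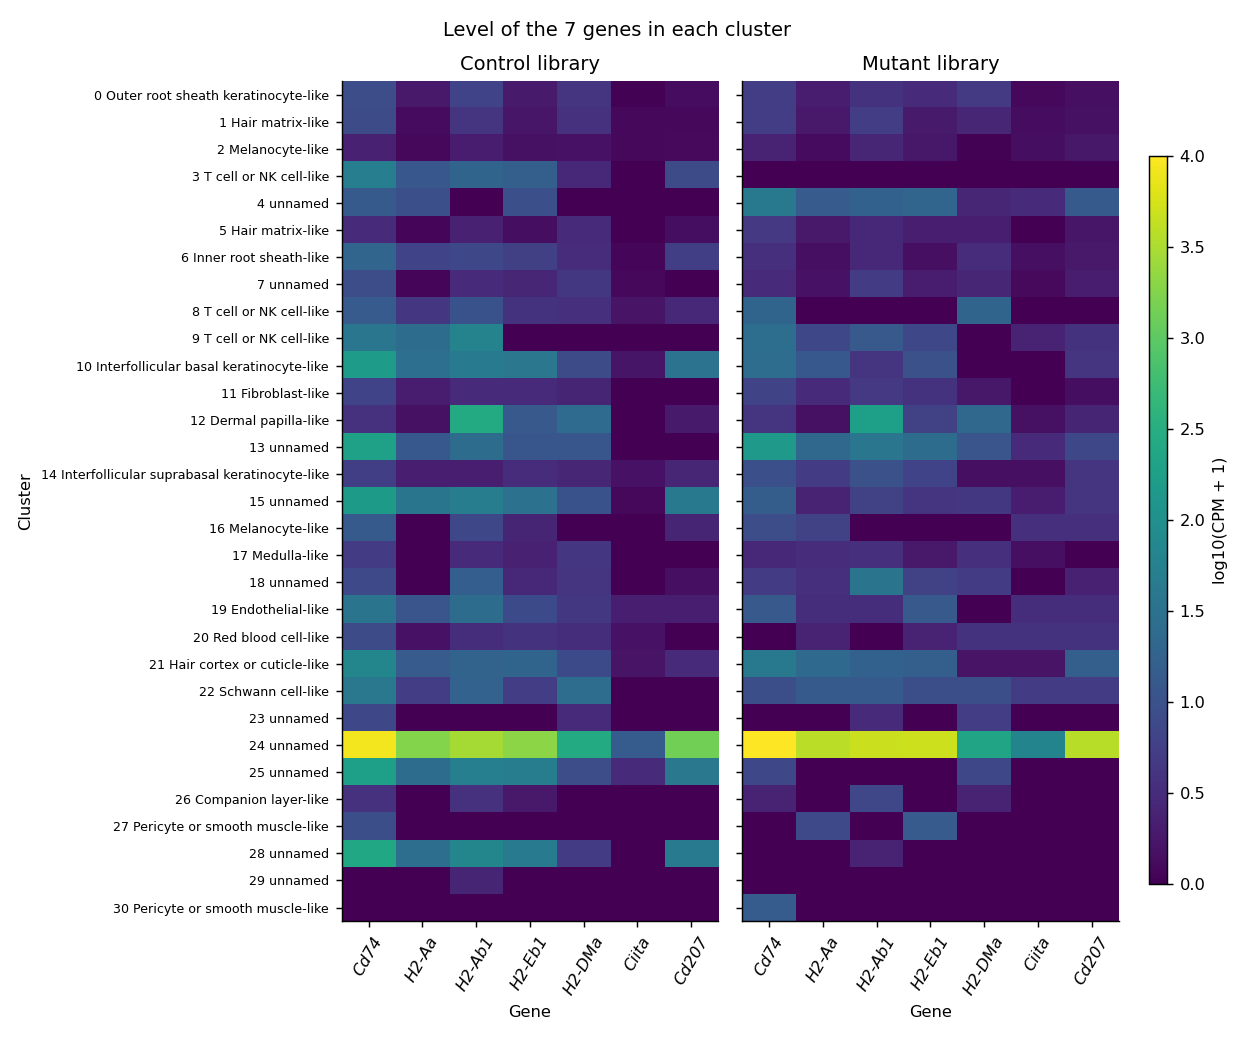
Level of the 7 genes (columns) in each of the 31 clusters (rows), as log10(CPM + 1) by colour, in the Control library (left) and the Mutant library (right). Cluster 24 is the brightest row for all 7 genes in both libraries, and the dermal papilla-like cluster 12 is bright for H2-Ab1 but not for Cd74.

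In cluster 24 the class II chains did not keep step. Cd74 was at 8462 CPM in Control and 10094 in Mutant, a log2 ratio of 0.25, and H2-Ab1 at 2853 and 4792 CPM, a log2 ratio of 0.75. H2-Aa rose from 1778 to 3853 CPM (log2 ratio 1.12; 1.03 to 1.21) and H2-Eb1 from 1988 to 4943 CPM (1.31; 1.23 to 1.40). Cd207 rose from 1403 to 3751 CPM (1.42; 1.32 to 1.52). These 3 of the 6 genes at 100 CPM had large higher ratios in a cluster where 11.1% of 1715 genes did and 7.99% fell (191 and 137 genes, or 284 and 90 with TMM scaling), and where the mast cell-like and neutrophil-like shares moved too. Limited to the Langerhans-like groups, H2-Eb1 stood at 2695 and 6058 CPM (log2 ratio 1.17) and Cd207 at 1783 and 4930 (1.47), both still large, while H2-Aa was at 2322 and 4468 CPM (0.94), below the 2-fold limit; 11.5% of 1724 genes had a large higher ratio there. Cd74 in the same cells was at 10999 and 11904 CPM, a log2 ratio of 0.11. The pooled ratios were not reached inside each group. Where most Mutant cells sat (7 Control and 39 Mutant cells), the log2 ratios were 0.26 for H2-Eb1, 0.58 for Cd207 and 0.02 for H2-Aa, and where most Control cells sat (23 and 3 cells) they were 0.80, 0.82 and 0.38, none of them large. In the Tslp-led group of 8 and 13 cells all 3 were large, at 1.41, 1.63 and 1.32. In the unnamed group of 8 and 4 cells H2-Eb1 and Cd207 fell, with -2.04 and -2.09. The makeup of the cluster therefore differs between the libraries along with the pooled levels, and its part in the ratios was not tested.

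The same imbalance appeared within single cells, where the depth of the cell drops out. Per 100 Cd74 UMIs of the same cell, the median number of H2-Aa UMIs was 19.1 in 76 Control cells (quartiles 13.4 to 23.9) and 37.1 in 85 Mutant cells (28.6 to 45.2), counting class II-high cells with at least 20 Cd74 UMIs. At 30 or more stood 9 Control and 62 Mutant cells, so the libraries overlapped but their quartiles did not. H2-Eb1 had medians of 20.3 and 47.1, with 16 and 78 cells at 30 or more. The medians of H2-Ab1 were closer, at 31.4 and 45.9, and those of Cd207 were 9.0 and 28.1. H2-DMa went the opposite way per 100 Cd74 UMIs, with 3.09 in Control and 1.49 in Mutant. As a level it was nearly equal, at 188 and 182 CPM over all class II-high cells (log2 ratio -0.05, interval -0.32 to 0.22). Cd74 was at 5563 and 9154 CPM in the same cells (log2 ratio 0.72). Cells of 1 library are not replicates, so these spreads describe 2 libraries and not the variation between mice.

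**Figure D3:**
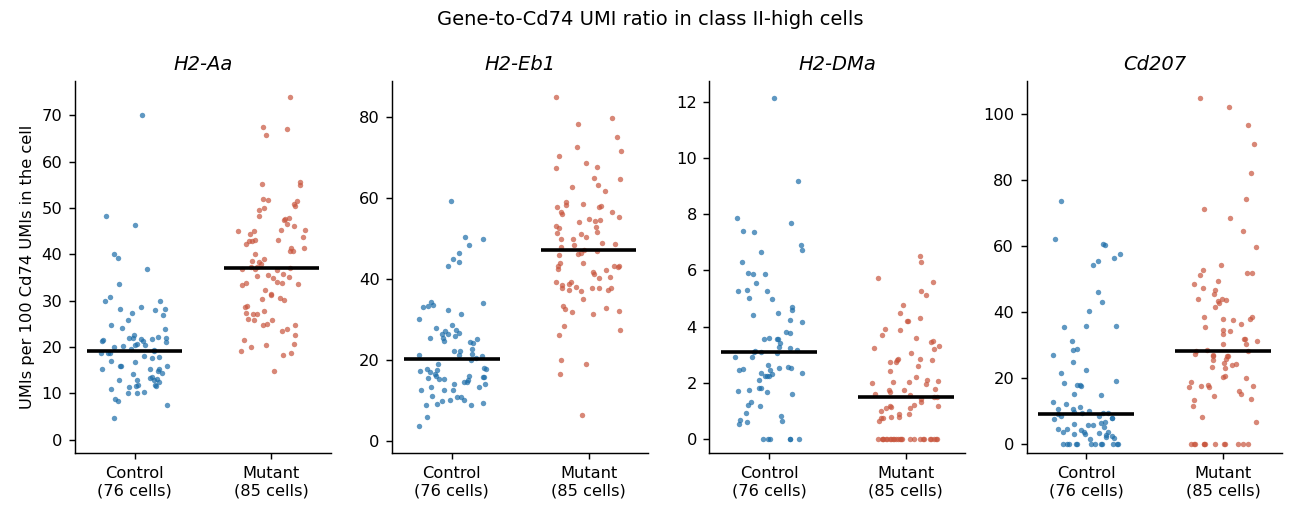
UMIs of H2-Aa, H2-Eb1, H2-DMa and Cd207 per 100 Cd74 UMIs of the same cell (y axes, linear, 1 scale per gene) in class II-high cells with at least 20 Cd74 UMIs, 76 in Control and 85 in Mutant. Each point is a cell and each black line a median; the H2-Aa and H2-Eb1 points of the Mutant lie mostly above those of Control, and the H2-DMa median is lower in Mutant.

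Divisions of the class II-high cells by Cd207 and keratin gave the same direction. They split the same cells and UMIs, so they add no separate support. H2-Aa UMIs per 100 Cd74 UMIs were 24.7 in Control and 36.7 in Mutant in Cd207 cells free of keratin and T cell genes, 18.4 and 37.7 in Cd207 cells with keratin genes, and 22.3 and 44.1 in class II-high cells under 3 Cd207 UMIs. H2-Eb1 gave 26.6 and 52.2, 23.3 and 47.8, and 17.1 and 33.4 in the same order. H2-DMa gave 3.13 and 2.18, 3.43 and 2.0, and 3.50 and 1.37. The last subset, under 3 Cd207 UMIs, had 25 Control and 18 Mutant cells, with 45 and 12 H2-DMa UMIs. Divided by sub-cluster instead, the direction held for H2-Aa and H2-Eb1 in the 3 Langerhans-like groups with cells in both libraries: H2-Eb1 per 100 Cd74 UMIs was 36.3 and 51.7 in the first (7 and 39 cells), 23.4 and 51.4 in the second (23 and 3) and 19.2 and 51.0 in the third (8 and 13). H2-DMa did not follow throughout, at 2.14 and 2.35 in the first of these groups. In the unnamed group, with 8 Control and 4 Mutant cells, H2-Eb1 was at 23.1 and 20 per 100, on 273 and 9 UMIs.

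The Cd207 cells free of keratin and T cell genes, 13 in Control and 34 in Mutant, were those under the keratin and T cell limits. They were picked by these genes, so their levels are a description. Of the 13 Control cells, 1 held 20325 UMIs, with 315 of the 4 genes and keratin genes at 0.453%. The Control median was 3036 UMIs, so the Control sums lean on that cell. Its part in the levels and ratios of these cells was not tested. Cd74 stood at 29890 CPM in Control and 35497 in Mutant, H2-Aa at 7393 and 13020, H2-Ab1 at 11432 and 17882, and H2-Eb1 at 7944 and 18516. Cd207 stood at 4156 and 14545 CPM (log2 ratio 1.81), and the log2 ratio of H2-Eb1 was 1.22. H2-DMa was at 935 and 772 CPM, with an interval that spans no difference (log2 ratio -0.28; -0.79 to 0.25). Ciita gave 4 UMIs in 1 of the Control cells and 15 UMIs in 11 of the Mutant cells. Red blood cell genes were also unequal in them: Hbb-bs, an adult beta-globin, was at 19776 CPM in Control and 257 in Mutant, and the summed red blood cell list at 31842 and 426. The melanocyte list summed to 250 and 1604 CPM and the basal keratinocyte list to 1819 and 564, while the T cell list stood at 0 and 19.8 CPM and the mast cell list at 0 in both. The part of this other RNA in the ratios was not tested; the ratios per Cd74 UMI above do not use the cell totals.

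Beyond the 7, Cd86, which encodes a costimulatory ligand of CD28, was the only one of 3 costimulation genes at 100 CPM with a large ratio in these cells. In the Cd207 cells free of keratin and T cell genes it rose from 200 to 1347 CPM (log2 ratio 2.75; 1.90 to 3.74), with a UMI in 6 of 13 Control and 32 of 34 Mutant cells, against a background of 5.39% of 1800 genes with a large higher and 5.72% with a large lower ratio and a median log2 ratio of -0.22. Cd83, which limits class II turnover, was at 718 and 683 CPM, and the receptor gene Cd40 gave 1 and 14 UMIs. Over all class II-high cells Cd86 was detected in 60.7% in Control and 86.2% in Mutant, thinned 17.9% and 55.9%, against thinned shares of 0.0946% and 0.137% in the other kept cells. None of the 6 loading and editing genes at 100 CPM had a large ratio: Ctss, the protease that trims Cd74, was at 601 and 703 CPM, H2-DMb1, the partner of H2-DMa, at 601 and 505, and Ctsh at 117 and 218. Of the transcription list only Ciita reached 100 CPM, and Rfx5 was at 0 in both libraries.

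Of 10 identity and upkeep genes at 100 CPM in those cells, Cd207 and Mfge8 rose and Epcam fell. Over all 1800 genes at that level, 5.39% had a large higher and 5.72% a large lower ratio. Cd207 had been used to pick the cells, so its level is a description. Mfge8 went from 1953 to 4297 CPM (log2 ratio 1.14) and Epcam from 1402 to 663 (-1.08). The Epcam value depends on the cells taken, since in the Langerhans-like groups, which include keratin-bearing cells, it rose from 665 to 1417 CPM (1.09). H2-M2 was at 818 and 1050 CPM, Ltc4s, the leukotriene C4 synthase, at 517 and 436, Id2, a transcriptional regulator required for Langerhans cells, at 517 and 485, and Runx3 at 117 and 218. Csf1r was at 284 and 604 CPM with a wide interval that kept it from being large (log2 ratio 1.09; 0.30 to 1.96). Among myeloid signalling genes Il1b, the inflammatory cytokine, was at 0 UMIs in Control, which allows up to 50.1 CPM, and at 58 UMIs or 574 CPM in Mutant, whereas Cd14, the lipopolysaccharide co-receptor, fell from 334 to 19.8 CPM. The adaptor genes Tyrobp and Fcer1g were at 1085 and 1267 CPM and at 434 and 743 CPM. Of the movement genes, Ccr7, Ccr2 and Ccr6 were at 0 in both libraries. In the interferon gamma list of 14 genes Jak2 rose, with 1 and 22 UMIs, Cxcl10 fell, with 9 and 2 UMIs, and Ifng itself was at 0 in both. Neither of the 2 division genes at 100 CPM had a large ratio, and Mki67 was at 100 and 149 CPM.

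In the full cluster 24, where 11.1% of 1715 genes had a large higher and 7.99% a large lower ratio, the lists gave small counts. Large higher ratios were found for 2 of 4 class II chain genes at 100 CPM, for Cd86 among 2 costimulation genes, for Cd207, Mfge8 and Csf1r among 9 identity genes, for Cd14 and Il1b among 5 myeloid genes and for Lgmn, a lysosomal endopeptidase, among 6 loading genes; the last count is close to the share over all genes. In the interferon gamma list Jak2 rose (log2 ratio 1.61) and Irf1, an interferon-induced transcription factor, fell (-2.37). Cd14 had opposite directions in this cluster and in the Cd207 cells; it was a leading gene of the neutrophil-like group, which held 5 Control and 25 Mutant cells, and the part of that group in the ratio was not tested. The 10 largest higher ratios of the cluster were those of S100a9, S100a8, Chil3, Rsad2, Ccl5, Ccl20, Il1b, Ngp, Ccl4 and Tslp. Of these, S100a9, S100a8, Chil3 and Ngp are known from neutrophils. Tslp and Ccl20 were also leading genes of the unnamed keratinocyte cluster 4, which held 36 Control and 1326 Mutant cells. The part of keratinocyte RNA in their ratios was not tested. The 10 largest lower ones included the mast cell genes Tpsb2 and Cpa3, the keratin Krt25 and the haemoglobin genes Hbb-bs and Hba-a1. Relative to all other kept cells, the genes that led the Cd207 cells free of keratin and T cell genes, after the members, were Ltc4s, Ctss, Alox5ap, Csf1r and Tyrobp.

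The dermal papilla, the mesenchymal signalling centre at the base of the hair follicle, showed H2-Ab1 with little Cd74 or H2-Aa. Cluster 12, called dermal papilla-like from Wif1, Rspo3, Vcan and Corin, had H2-Ab1 at 276 CPM in 515 Control cells and 179 CPM in 335 Mutant cells, second only to cluster 24 among the 31 clusters (256 CPM with both libraries summed, against 49.1 in the third). Cd74 was at 2.67 and 3.16 CPM in the same cells, H2-Aa at 0.533 and 0.526, and Ciita at 0 and 0.526. H2-Eb1 was at 12.3 and 5.26 CPM, and with both libraries summed cluster 12 had rank 10 of the 31 clusters for it. H2-Ab1 was detected in 61.4% (57.0 to 65.6) of Control and 46.0% (40.5 to 51.5) of Mutant cells, against 1.01% and 1.59% in the fibroblast-like cluster and 1.65% in both libraries in the melanocyte-like cluster. Thinned to 1500 UMIs per cell the papilla shares were 28.5% and 24.5%. The genes of the peptide exchanger were also second highest there: H2-DMa at 23.7 and 20.5 CPM and H2-DMb1 at 46.4 and 38.4. For H2-DMa the Schwann cell-like cluster, at 17 CPM, overlapped it within counting error. Cluster 12 held 35.9% of all H2-Ab1 UMIs in Control and 7.20% in Mutant.

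**Figure D4:**
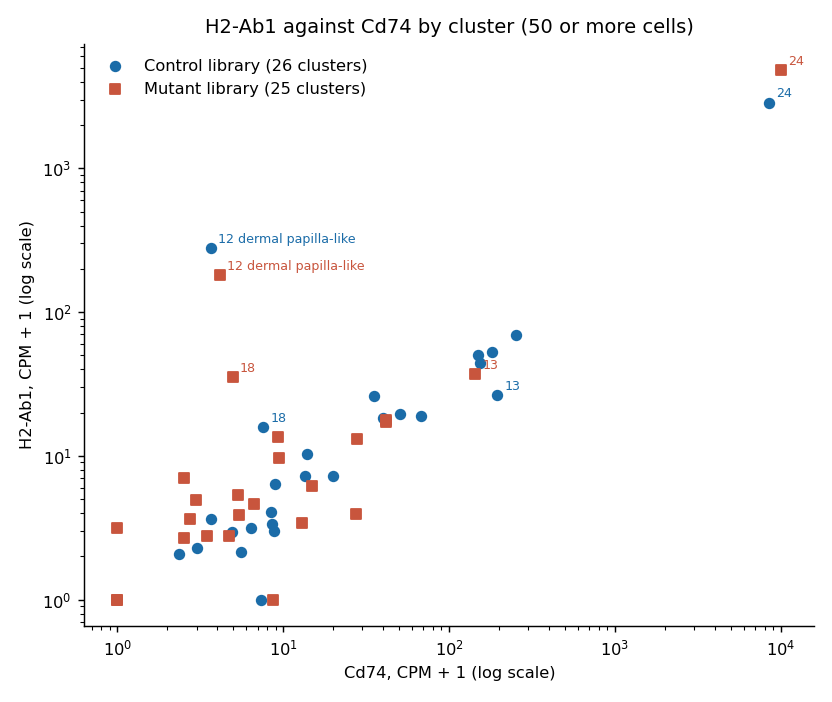
H2-Ab1 (y axis) against Cd74 (x axis), both as CPM + 1 on log scales, for each cluster with at least 50 cells in that library; circles are Control and squares Mutant. Clusters mostly lie along a common diagonal ending in cluster 24, and the dermal papilla-like cluster 12 lies far above it in both libraries.

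The lower papilla level in Mutant, a log2 ratio of -0.63 (-0.80 to -0.46) that is not large, lay in the deepest cells. At 10000 UMIs or more, H2-Ab1 was at 284 CPM (271 to 297) in 248 Control cells and 146 CPM (124 to 171) in 52 Mutant cells. From 3000 to 10000 UMIs it was at 218 and 210 CPM, and below 3000 at 182 (137 to 236) and 235 (187 to 292). Weighting cells equally left a log2 ratio of -0.043. The number of deep cells therefore differs between the libraries along with the level, and the part of depth in the ratio was not tested. In this cluster 17.8% of 2056 genes had a large ratio.

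Outside these clusters Cd74 was next highest in cluster 13, an unnamed lymphoid cluster led by Il17a, Gzmc and Icos, at 195 CPM in 560 Control and 143 CPM in 193 Mutant cells (log2 ratio -0.44). With both libraries summed it was at 184 CPM there, which overlapped within counting error the 171 CPM of cluster 25. A Cd74 UMI was seen in 26.4% (22.8 to 30.3) and 14% (9.43 to 19.7) of its cells, against 2.87% and 3.16% in the T cell or NK cell-like clusters. The other chains were low, with 6.06 H2-Aa UMIs per 100 Cd74 UMIs in Control, and Cd207 gave 0 and 3 UMIs. These values include 5 Control and 2 Mutant class II-high cells. Without those, Cd74 went from 330 to 245 UMIs in Control and from 68 to 37 in Mutant. At 3 or more Cd74 UMIs stood 31 Control and 3 Mutant cells. Those cells also carried more immunoglobulin RNA: Igkc, the kappa light chain, was at 161 and 1970 CPM in them and at 6.61 and 15 CPM in the cells without a Cd74 UMI, although Cd79a was seen in 1 cell of each library. The part of B cell RNA in these values was not tested. Cluster 18, a small unnamed cluster, had H2-Ab1 at 14.8 and 34.2 CPM (log2 ratio 1.21; 0.41 to 1.99) with Cd74 at 6.54 and 3.95.

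Keratinocytes can be induced to express class II by interferon gamma, and at rest they express little of it. In the 15 keratinocyte clusters, with 7673 Control and 6711 Mutant cells, Cd74 was at 40.5 and 11.2 CPM, H2-Aa at 7.49 and 3.64, H2-Ab1 at 13 and 6.54, H2-Eb1 at 9.37 and 4.62 and Cd207 at 8.05 and 3.13. These sums contain 20 Control and 7 Mutant class II-high cells, with median totals of 48530.5 and 41919 UMIs. Without them Cd74 was at 12.9 and 4.02 CPM and Cd207 at 1.93 and 0.911 (log2 ratio -1.08). With every cell at 10 or more UMIs of the 4 genes or 3 or more of Cd207 also left out, 7644 and 6703 cells remained, Cd74 was at 6.34 and 3.92 CPM (log2 ratio -0.69; -0.92 to -0.47), H2-Ab1 at 3.17 and 3.51, H2-Eb1 at 1.82 and 1.69 and H2-Aa at 0.663 and 1.12. Cd207 then stood the other way, at 0.320 and 0.877 CPM (log2 ratio 1.45; 0.76 to 2.17), on 28 and 51 UMIs. Most of the Cd74 gap between the libraries thus rested on 29 Control and 8 Mutant cells. Several of the pooled clusters were unevenly split, with 959 Control and 64 Mutant cells in cluster 10 and 36 and 1326 in cluster 4. Others were not, such as cluster 15 with 329 and 351. The makeup of the keratinocytes therefore differs between the libraries along with these ratios, and its part in them was not tested. No member reached 100 CPM in keratinocytes, where 7.17% of 1534 genes had a large ratio.

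The low-count keratinocytes were set beside cells that should lack Cd74. A Cd74 UMI was seen in 5.90% of the low-count Control keratinocytes and 2.88% of the Mutant ones, or 0.853% and 0.547% after thinning to 1500 UMIs. In the melanocyte-like cluster, with medians of 15338 and 13678 UMIs, it was 1.92% and 1.65%, thinned 0.367% and 0.157%, and in the fibroblast-like cluster, with 3975 and 4426 UMIs, 2.52% and 2.58%, thinned 0.525% and 1.28%. The thinned keratinocyte shares lay above those of the melanocyte-like cluster in both libraries, and above the fibroblast-like share in Control but below it in Mutant; no expression by keratinocytes is read from them. The high Cd74 of the interfollicular basal cluster 10 (153 CPM in 959 Control cells and 26.3 CPM in 64 Mutant cells) came down to 34.2 CPM in Control without its class II-high cells, and that of cluster 4 (12.7 CPM in 36 Control and 40.6 CPM in 1326 Mutant cells) to 5.25 CPM in Mutant.

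H2-DMa and Ciita were also low in keratinocytes. Without class II-high cells, H2-DMa was at 2.70 CPM in Control and 1.80 in Mutant, and its ratio to Cd74 was 25.1 UMIs per 100 with both libraries summed, against 2.72 in class II-high cells. The level of H2-DMa was not particular to keratinocytes: with both libraries summed the median over the 31 clusters was 2.32 CPM, with 3.12 in a T cell or NK cell-like cluster, 2.47 in the red blood cell-like cluster, 1.15 in the fibroblast-like cluster and 0.303 in the melanocyte-like cluster 2. H2-DMb1 was at 5.94 and 3.08 CPM in the same keratinocytes, and it was at 15 CPM in the outer root sheath cluster 0 with both libraries summed. Ciita was at 0.217 and 0.585 CPM in the low-count keratinocytes, a log2 ratio of 1.43, and the Mutant UMIs concentrated in cluster 4, at 2.06 CPM, with a UMI in 17 of 1326 cells (1.28%). H2-DMa overlaps Brd2 on the opposite strand by 3094 bases and the gene model CR974462.3 on the same strand by 591 bases. Ciita overlaps Dexi on the opposite strand. Strand handling is not given in the sources used here, so low counts of H2-DMa and Ciita are uncertain.

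**Figure D5:**
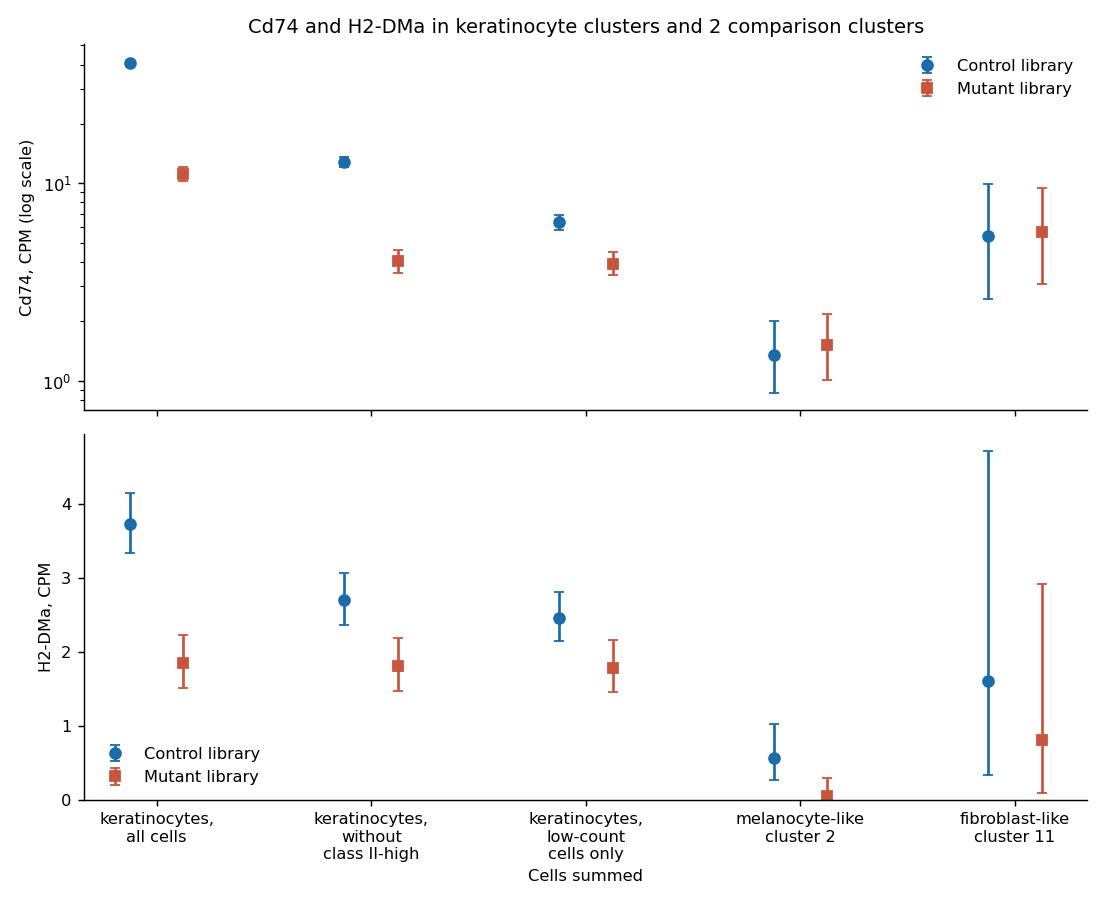
Cd74 (top, CPM on a log scale) and H2-DMa (bottom, CPM on a linear scale) in all cells of the keratinocyte clusters, in those without class II-high cells, in low-count cells only, and in the melanocyte-like and fibroblast-like clusters; circles are Control, squares Mutant, and bars exact 95% Poisson intervals. Cd74 in Control falls from 40.5 to 6.34 CPM as class II-rich cells are left out, whereas H2-DMa stays between 3.73 and 2.46 CPM.

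Across 59 combinations of cluster and library, the genes whose log2(CPM + 1) was most like the mean of Cd74, H2-Aa, H2-Ab1 and H2-Eb1 were Cd207 (Pearson r = 0.90), the cathepsin gene Ctss (0.84), the myeloid transcription factor gene Spi1 (0.83), H2-DMb2 (0.81) and Cd86 (0.80), followed by Alox5, Adgre1, Ly86, Ltc4s and Tyrobp. With cluster 24 left out, at 57 points, Cd207 was at 0.77, Ctss at 0.66 and Cd86 at 0.48. The points share 2 libraries and their free RNA, and the values are a description.

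In GRCm38, H2-DMa (chromosome 17, 34119541 to 34139101), H2-Ab1 (34257689 to 34269419), H2-Aa (34282744 to 34287823) and H2-Eb1 (34305867 to 34316674) lie together on chromosome 17. Ciita lies on chromosome 16 (10480059 to 10528418) and Cd207 on chromosome 6 (83671215 to 83677857). H2-Eb1 overlaps the gene model Gm20513 on the opposite strand by 2204 bases.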

How the data were processed

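Single-cell RNA-seq libraries were made with 3′ v3 chemistry, per the labels' protocols. The deposited matrices hold raw UMI counts per gene and barcode, written by Cell Ranger 3.0.2 per the file headers; Seurat 3.0.0 and 3.1.0 and GRCm38 are named in the submitters' processing notes, with no steps given. No column of per-sample values was left unmapped.

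Counts were read with Python 3.11.15, numpy 2.4.6, scipy 1.17.1 and scanpy 1.11.5. Barcodes with 500 genes or more and at most 15% mitochondrial UMIs were kept, and Scrublet calls (expected rate 0.8% per 1000 cells) were removed. Cells were clustered (2000 variable genes, 30 principal components, 15 neighbours, leidenalg 0.10.2 at resolution 1, seed 1) without the class II genes, Cd207, cell cycle genes or sex-linked genes. A cluster was named from 26 marker sets at a score of 1 or more, a lead of 0.3 and at least 3 detected markers. Counts were summed per library and class and given as CPM with exact Poisson intervals, and ratios with exact conditional intervals; shares have Clopper-Pearson intervals at 95%. With 1 matrix per group no test was made. The intervals cover counting error only. A count of 0 allows up to 3 counts. Shares of cells with a marker were compared with other cells after thinning to 1500 UMIs, a step added after seeing the data.

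The members and the 9 gene lists were chosen with earlier results of these data known. Named genes were the 7 members, examples from the lists, the 20 genes leading the class II-rich cluster, up to 10 large ratios in each direction and the 10 most similar genes. Genes for cell detection counts, the markers named beside a class and cluster 18 were chosen after their values were seen. Alternatives covered the filters, the class II-high threshold, doublet calls, cluster resolution, the level minimum and scaling by factors from edgeR 4.0.16 (TMM) or DESeq2 1.42.0. The ratio code was tested on simulated data.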

Additional observations from a re-analysis of the deposited data

Results flagged for a closer look

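Several genes differed between the libraries in opposite directions in different cell classes. With 1 library per group these differences between classes were not tested, and each value is a log2 ratio of Mutant over Control. Cd74 was at 0.25 in cluster 24, -1.86 in the keratinocyte clusters and -0.44 in cluster 13. H2-Aa was at 1.12 in cluster 24 and -1.04 in keratinocytes. H2-Ab1 was at 0.75 in cluster 24, -0.99 in keratinocytes and -0.63 in the dermal papilla-like cluster 12. H2-Eb1 was at 1.31 in cluster 24 and at -1.02 in keratinocytes. In cluster 13 it was at 1.25 (0.06 to 2.38), on 18 Control and 12 Mutant UMIs. In cluster 12 it was at -1.22 (-2.33 to -0.28), on 92 and 10 UMIs. Cd207 was at 1.42 in cluster 24 and -1.36 in keratinocytes. The keratinocyte values include class II-high cells, whose removal is described above. Those of cluster 13 include 5 Control and 2 Mutant class II-high cells.

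Barcodes outside the analysed cells also held class II RNA. Among those removed for having few genes, 4 in Control and 5 in Mutant passed the class II-high threshold.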

How the results depend on the processing

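No paired analysis was possible because each group is 1 pooled matrix, and for the same reason no replicate could be left out. The share of class II-high cells kept its direction under each alternative run, with log2 ratios from 0.37 to 0.80; its interval reached below 0 at 5 UMIs and 0.1% (-0.03 to 0.77) and there with the dermal papilla-like cluster left out (-0.01 to 0.80). Over all kept cells, the 4 genes' log2 ratio (0.56) was 0.51 with Scrublet calls kept, 0.52 with all barcodes, 0.64 with TMM and 0.66 with DESeq2 factors, and turned to -1.31 without class II-high cells; single genes then gave -0.55 for Cd207, -1.29 for Cd74, -0.74 for H2-Aa, -1.50 for H2-Ab1 and -0.81 for H2-Eb1. In keratinocytes the 4 genes' ratio (-1.44) was -1.19 without class II-high cells, -1.81 under the stricter cell filter (1000 genes, 10% mitochondrial) and -1.26 at both other cluster resolutions, 0.5 and 2. H2-Ab1 in the dermal papilla-like cluster (-0.63) was -0.85 at resolution 0.5 and -0.043 as a mean over cells. In cluster 24 the 191 large higher ratios became 387 with no level minimum and 97 in Cd207 cells without keratin or T cell genes, a choice made after seeing the data, and 284 with TMM and 269 with DESeq2 factors; the 137 large lower ones became 266 at 50 CPM, 577 with no minimum 97 with DESeq2 factors and 90 with TMM factors, which moved the median log2 ratio of all genes by 0.18. The cause of these shifts was not tested, beyond what each setting leaves out or scales. Cd74 in cluster 13 moved from -0.44 to -1.54 under the stricter filter. In all, 97 alternative values stayed close to the reported one, 42 moved and 6 turned.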
